A study of Homo sapiens with 12 samples.

Results

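The 2 blocks of chromosome 19 described here are rich in genes for KRAB zinc finger proteins. They were taken as hg19 (GRCh37) positions chr19:19800000-24500000, called the 19p block, and chr19:52300000-54000000, called the 19q block. The members are all regions of 3 deposited histone mark lists that overlap either block: 82 of 24481 H3K4me3 regions, 131 of 66586 H3K27ac regions and 233 of 182755 H3K4me1 regions, or 446 of 273822 in all. The rule uses position alone. The 19p block is 4.70 Mb long and 93.6% of it lies in band p12, which stains variably, next to the centromere. The 19q block is 1.70 Mb long, with 76.5% in band q13.41 and 23.5% in q13.42. The rest of chr19, 52.7 Mb long, served as the comparison and holds other zinc finger genes of its own.

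The study profiled untreated HepG2 cells, an established line labelled as hepatocellular carcinoma, by ChIP-seq, which recovers DNA bound to a chosen histone modification. Its 12 libraries form 4 groups of 3, for H3K4me3, H3K27ac, H3K4me1 and a control whose title says input while its antibody label is anti-mouse IgG. All groups share the same line and culture. The 3 lists analysed pool the replicates of each mark going by their names, so depth and the spread between cultures are unknown, and no difference below was tested against replicates. The 95% limits given below reflect counting error alone and take each region as independent of its neighbours. Liver marker genes were not analysed here, because no gene annotation of the build was used.

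KRAB zinc finger proteins form the largest family of human transcription factors. Their zinc fingers bind DNA, and the KRAB domain recruits TRIM28 and the H3K9 methyltransferase SETDB1, a system best known for silencing transposable elements. The genes arose by repeated tandem duplication and lie side by side on chromosome 19. H3K4me3 marks promoters in active use or ready for it, H3K27ac marks active promoters and enhancers, and H3K4me1 marks enhancers and the flanks of promoters. H3K9me3, the mark these clusters are best known for, was not among the marks profiled.

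Promoter sequences of the genes are shown first, because the gene sets that textbook maps place in the bands of the blocks differ in base composition. In the gene order of RefSeq on GRCh38.p14, the named protein-coding genes from ZNF506 to ZNF254 (19p set) number 36, of which 35 are zinc finger genes and the other is RPSA2. This set includes ZNF91 and ZNF93, known repressors of SVA and L1 retrotransposons. The genes from ZNF577 to ZNF331 (19q set) number 43, of which 38 are zinc finger genes. The others are PPP2R1A, the scaffold subunit of protein phosphatase 2A, the endogenous retroviral envelope genes ERVV-1 and ERVV-2, and the vomeronasal receptor genes VN1R2 and VN1R4. Only gene names and order were taken from that build, so the ends of the sets need not match the borders of the blocks. No marked region was assigned to a gene. The 250 bases before the gene start follow, 5′ to 3′, for the genes with the fewest and the most CpG dinucleotides in each set, where ZNF726 ties with ZNF492 and has the higher CpG ratio. Capitals mark each CG pair and each CCAAT box, a binding motif of NF-Y, on either strand.
ZNF708 (19p set, minus strand, 3 CpG): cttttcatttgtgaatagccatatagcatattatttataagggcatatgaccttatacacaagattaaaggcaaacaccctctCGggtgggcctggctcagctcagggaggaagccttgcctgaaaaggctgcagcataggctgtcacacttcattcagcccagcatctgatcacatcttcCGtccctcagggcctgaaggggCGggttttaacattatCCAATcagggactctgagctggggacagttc
ZNF726 (19p set, plus strand, 13 CpG): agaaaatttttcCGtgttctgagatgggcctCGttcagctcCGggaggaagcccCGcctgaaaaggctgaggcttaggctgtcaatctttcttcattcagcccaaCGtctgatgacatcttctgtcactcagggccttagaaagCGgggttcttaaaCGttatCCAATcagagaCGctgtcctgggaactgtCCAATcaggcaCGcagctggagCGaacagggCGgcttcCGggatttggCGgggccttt
ZNF836 (19q set, minus strand, 10 CpG): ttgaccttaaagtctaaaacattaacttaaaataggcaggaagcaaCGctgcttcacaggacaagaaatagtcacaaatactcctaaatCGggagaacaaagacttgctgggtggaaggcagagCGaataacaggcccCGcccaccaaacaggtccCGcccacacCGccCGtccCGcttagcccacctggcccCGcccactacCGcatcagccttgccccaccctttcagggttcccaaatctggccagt
ZNF160 (19q set, minus strand, 26 CpG): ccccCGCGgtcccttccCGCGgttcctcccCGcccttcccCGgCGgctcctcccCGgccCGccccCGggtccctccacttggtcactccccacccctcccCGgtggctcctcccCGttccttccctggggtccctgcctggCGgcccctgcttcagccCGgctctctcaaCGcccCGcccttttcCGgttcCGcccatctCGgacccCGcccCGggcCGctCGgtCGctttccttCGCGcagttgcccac

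Promoters of the 19p set were poorer in CpG than those of the 19q set. The observed over expected CpG ratio had a median of 0.423 over 27 promoters of the 19p set and 0.844 over 31 promoters of the 19q set, with 8 and 7 genes of the sets not in the table. A ratio of at least 0.6 was found in 1 of 27 promoters of the 19p set (ZNF726, 0.715) and in 29 of 31 of the 19q set, beside 59.8% of 1169 promoters of named protein-coding genes on chromosome 19. The letters CCAATCAG, searched on both strands, occurred in all 27 promoters of the 19p set and in 1 of 31 of the 19q set, against 25.5% of 220 promoters of zinc finger genes on chromosome 19, 9.75% of its protein-coding promoters and 4.00% of 27303 promoters of the table. These larger sets include the promoters of both gene sets, and the motif was chosen with earlier results of these data known. A shared stretch of 20 bases joined 246 of 351 pairs of promoters in the 19p set (70.1%) and 39 of 465 pairs in the 19q set (8.39%). In the 19p set, 26 of the 27 promoters shared such a stretch with another, so they are not independent examples.

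**Figure D1:**
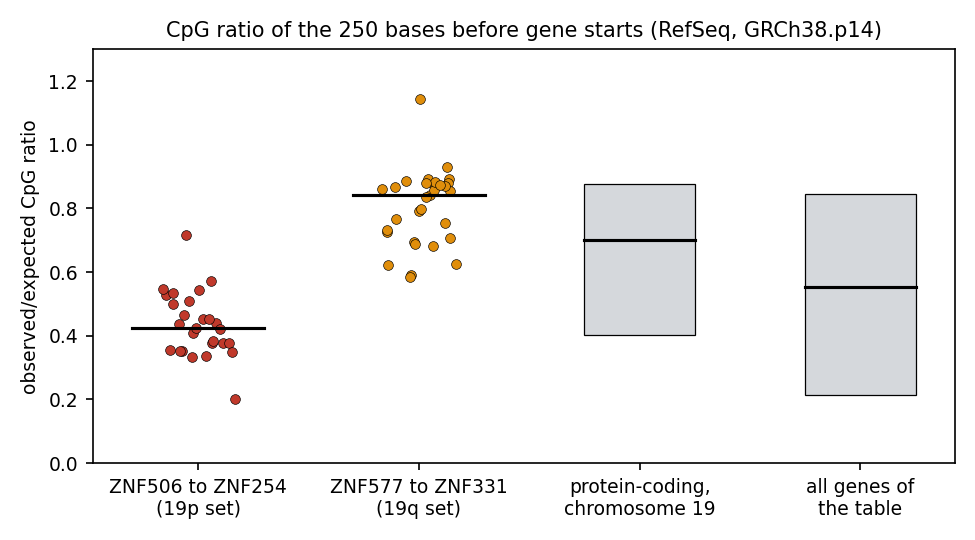
Observed over expected CpG ratio in the 250 bases before gene starts; points are single genes of the 19p set (27) and the 19q set (31), black lines are medians, and grey boxes span the middle 50% of promoters for protein-coding genes of chromosome 19 and for all genes of the table. The medians of the sets are 0.423 and 0.844, on either side of the 0.700 of chromosome 19.

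The blocks carried fewer marked regions per Mb than the rest of chr19, and the shortfall was largest for H3K4me1. For H3K4me3 the 19p block had 39 regions, or 8.30 per Mb (5.90 to 11.3), and the 19q block 43, or 25.3 per Mb (18.3 to 34.1), against 29.6 per Mb (28.1 to 31.1) in the rest of chr19. For H3K27ac the densities were 12.6 (9.56 to 16.2), 42.4 (33.1 to 53.3) and 60.6 per Mb (58.5 to 62.7). For H3K4me1 they were 22.1 (18.1 to 26.8), 75.9 (63.4 to 90.2) and 137.2 per Mb (134.0 to 140.4). The 19q block thus held about as many H3K4me3 regions per Mb as the rest of chr19, with a density ratio of 0.856 whose interval, 0.617 to 1.16, includes 1, but fewer H3K4me1 regions (0.553, 0.461 to 0.658) and fewer H3K27ac regions (0.699, 0.546 to 0.883). In the 19p block all 3 ratios were lower, at 0.281 (0.199 to 0.385) for H3K4me3, 0.207 (0.157 to 0.268) for H3K27ac and 0.161 (0.132 to 0.196) for H3K4me1. Over both blocks the ratios were 0.433 (0.343 to 0.541), 0.338 (0.282 to 0.403) and 0.265 (0.232 to 0.302) in the same order. These ratios use the full length of the rest of chr19, of which 3.77 Mb next to the 19p block, with the centromere in it, carried no region.

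Chromosome 19 is dense in genes, so the blocks were also set beside chromosomes 1 to 22 and X. The 19p block had an H3K4me3 density close to the 8.05 per Mb over those chromosomes, inside its own interval. Its H3K4me1 density of 22.1 per Mb lay below their 60.1 and its H3K27ac density of 12.6 below their 21.9. The 19q block lay above those chromosomes for each mark, at 25.3 per Mb for H3K4me3, 42.4 for H3K27ac and 75.9 (63.4 to 90.2) for H3K4me1. There were 2.67 H3K4me1 regions per H3K4me3 region in the 19p block and 3.00 in the 19q block. The rest of chr19 had 4.64 as a whole and all those chromosomes 7.47. A low ratio was not particular to the blocks, and several 500 kb windows in the rest of chr19 had one. Among them, chr19:37000001-37500000 held 17 H3K4me1 and 10 H3K4me3 summits, chr19:37500001-38000000 held 15 and 10, and chr19:44500001-45000000 held 24 and 15. By length, H3K4me1 covered 1.83% of the 19p block, 5.23% of the 19q block and 15.9% of the rest of chr19. H3K4me3 covered 1.41%, 4.93% and 5.25%, so that in the 19q block both methylations covered nearly equal lengths.

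In windows of 500 kb the 2 blocks also differed from each other. The 9 windows inside the 19p block held 0 to 7 H3K4me3 summits (median 4) and 0 to 18 H3K4me1 summits (median 11). The 3 windows inside the 19q block held 12, 12 and 16 H3K4me3 summits and 24 to 54 H3K4me1 summits. No window of the 19p block reached the lowest of the 19q block for any of the 3 marks. Both lay within the range of the 104 windows in the rest of chr19, which was 0 to 44 for H3K4me3 (median 15, SD 10.2) and 0 to 149 for H3K4me1 (median 68, SD 42.1). The density of H3K4me3 regions in the 19p block was 0.328 times that in the 19q block (0.207 to 0.518).

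**Figure D2:**
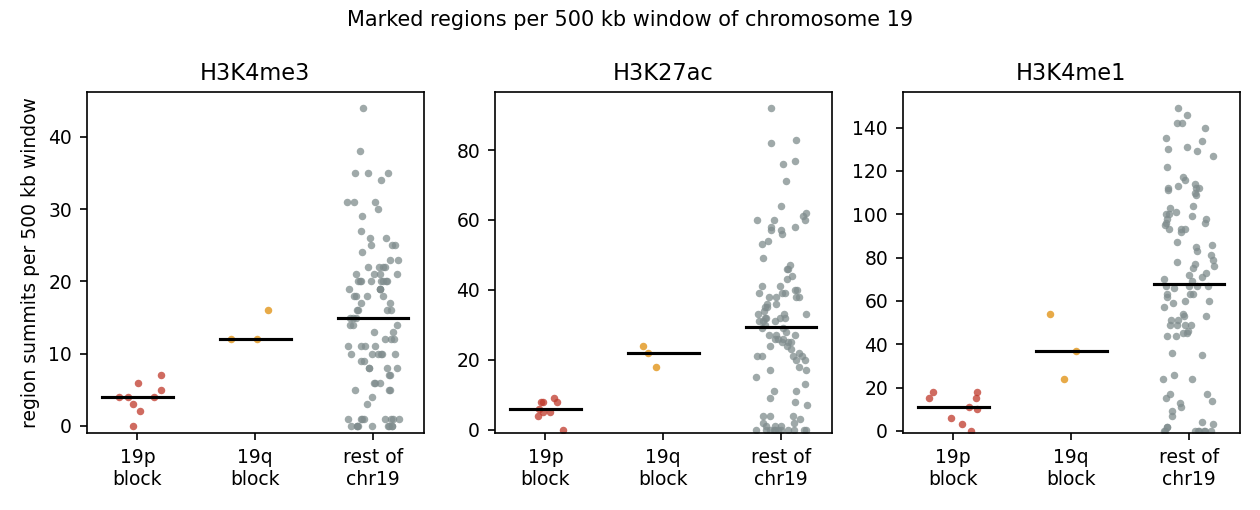
Number of region summits in each 500 kb window of chromosome 19, with 9 windows inside the 19p block, 3 inside the 19q block and 104 outside both; black lines are medians. Windows of the 19p block sit near the bottom for each mark, with medians of 4 for H3K4me3 and 11 for H3K4me1 against 15 and 68 outside the blocks.

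Most H3K4me3 regions of the blocks were acetylated. At equal strength the share differed from the rest of chr19 by less than counting error, in classes that were near the ceiling or small. Of the 82, 77 overlapped H3K27ac (93.9%, Wilson interval 86.5 to 97.4), against 82.7% (80.8 to 84.5) in the rest of chr19 and a background of 77.5% over chromosomes 1 to 22 and X. The share was 35 of 39 in the 19p block and 42 of 43 in the 19q block. Regions were also compared within the stronger 2 quartiles of the authors' signal value over the whole list. There the share was 65 of 65 (lower limit 94.4%) against 98.4% (97.3 to 99.0), with a background of 97.7%. Shares this near the ceiling leave little room for an excess. In the weakest quartile the share was 4 of 7 against 55.6% (50.2 to 60.8), and in the next 8 of 10 against 71.2% (66.4 to 75.6). These 2 classes hold few regions of the blocks. Whether strength accounts for the excess was not tested. Overlap with H3K4me1 was lower in the blocks: 63 of 82 had it (76.8%, 66.6 to 84.6), against 96.6% (95.6 to 97.4) in the rest of chr19 and a background of 92.7%. In the stronger 2 quartiles it was 50 of 65 (76.9%, 65.4 to 85.5) against 97.9% (96.7 to 98.7), with a background of 95.3%. Over all strengths the 19p block had 26 of 39 (66.7%, 51.0 to 79.4) and the 19q block 37 of 43 (86.0%, 72.7 to 93.4), with overlapping intervals.

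The combination of H3K4me3 with H3K27ac but no H3K4me1 was found at 16 of 82 regions (19.5%, 12.4 to 29.4), beside 28 of 1559 in the rest of chr19 (1.80%, 1.25 to 2.58) and a background of 3.47%. This class excludes only H3K4me1 that overlaps the region, and 2 of the 16 had H3K4me1 within 1000 bp of an edge. The 19p block held 10 of them and the 19q block 6. Only 3 regions had neither other mark (3.66%, 1.25 to 10.2), all in the 19p block, near the background of 3.78%. In the 19q block 0 of 43 did, with a Wilson upper limit of 8.20%.

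Seen from the acetylation list, most H3K27ac regions of the blocks sat on H3K4me3. Of the 131, 89 overlapped it (67.9%, 59.5 to 75.3), against 45.5% (43.8 to 47.2) in the rest of chr19 and a background of 31.7%. The enhancer-like combination of H3K27ac with H3K4me1 and without H3K4me3 made up 30 of 131 (22.9%, 16.5 to 30.8), against 47.5% (45.8 to 49.2) and a background of 59.8%. The remaining 12 regions had neither methylation. Both blocks were alike in these shares, with 41 of 59 and 48 of 72 on H3K4me3, and 14 and 16 enhancer-like. Of the 233 H3K4me1 regions 103 overlapped neither other mark (44.2%, 38.0 to 50.6), against 51.5% (50.3 to 52.6) in the rest of chr19 and a background of 61.6%. The first 2 of these intervals overlap.

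**Figure D3:**
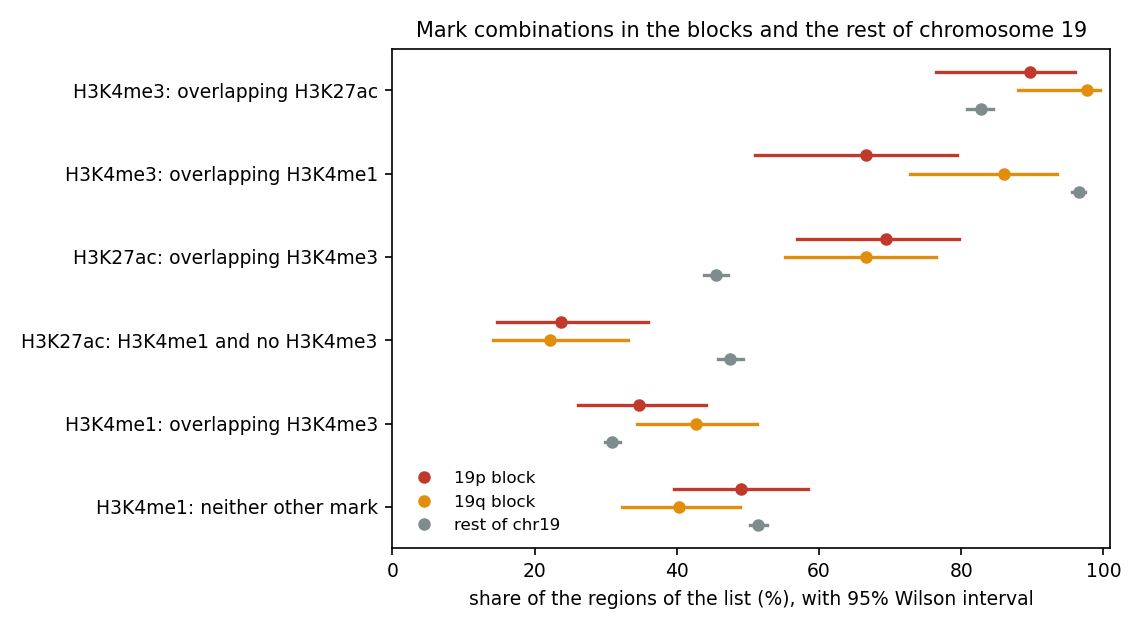
Share of the regions of each list that have the named combination of marks, for the 19p block, the 19q block and the rest of chr19; points are shares and lines 95% Wilson intervals. H3K4me3 regions of both blocks overlap H3K27ac often and H3K4me1 less often than the 96.6% of the rest of chr19, and 22 to 24% of their H3K27ac regions are enhancer-like against 47.5%.

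The H3K4me3 regions of the blocks were mostly strong and of similar width. Their signal value, the authors' own measure of peak strength, which is compared here only within a list, had a median of 37.0 (33.2 to 41.0), against 17.3 (14.9 to 20.7) in the rest of chr19. It ranged from 1.86 to 65.9 over 82 regions, whereas the rest of chr19 reached 108.4 over 1559, where a higher maximum is likelier. Divided at the quartiles of the whole list (3.45, 13.3 and 41.9), 7, 10, 34 and 31 of the 82 regions fell in the quartiles from weakest to strongest, so that 65 (79.3%, 69.3 to 86.6) were in the stronger 2 quartiles, against 54.8% (52.3 to 57.2). The difference in the median lay in the number of weak regions: within the stronger 2 quartiles the median was 40.6 (37.2 to 44.8) in the blocks and 41.6 (40.1 to 43.7) outside, with overlapping limits.

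Widths had a median of 1944 bp (1755 to 2128) in the blocks and 1596 bp (1508 to 1691) in the rest of chr19. Within the stronger 2 quartiles the blocks were narrower instead, with 2120 bp (1968 to 2233) against 2325 bp (2260 to 2387). None of the 82 was wider than 3274 bp, while regions of the rest of chr19 reached 9570 bp. The rest of chr19 has 1559 regions, and a larger number makes a higher maximum likelier. By block, the medians were 1770 bp and a signal value of 32.5 in the 19p block, and 2120 bp and 39.6 in the 19q block. Their intervals overlap for both quantities: 1534 to 2024 bp against 1785 to 2306 bp, and 20.3 to 41.0 against 34.9 to 46.0.

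**Figure D4:**
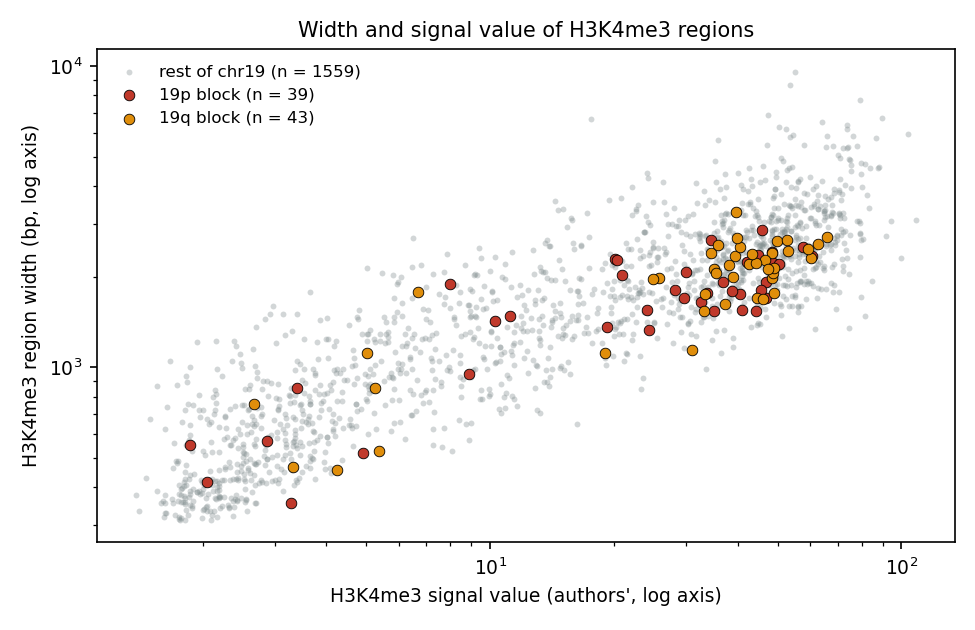
Width in bp against the authors' signal value of each H3K4me3 region on chromosome 19, both on log axes, with 39 regions of the 19p block, 43 of the 19q block and 1559 of the rest of chr19. The regions of the blocks gather at high signal values and at widths near 2 kb, none above 3274 bp, with a smaller weak group.

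Acetylation ended inside the H3K4me3 region more often than in the rest of chr19, and it covered fewer positions around these promoters. All 65 regions of the stronger 2 quartiles had their summit inside an H3K27ac region, as did 98.0% of the 854 in the rest of chr19, with a background of 97.4%. In 40 of the 65 (61.5%, 49.4 to 72.4) all overlapping H3K27ac regions ended inside the H3K4me3 region, against 340 of 840 with H3K27ac in the rest of chr19 (40.5%, 37.2 to 43.8) and a background of 45.8%. The excess lay mainly in the 19p block, with 21 of 29 (72.4%, 54.3 to 85.3). The 19q block had 19 of 36 (52.8%, 37.0 to 68.0), an interval that holds both the rest of chr19 and the background. At 1 kb from the summit 37.7% of positions in the blocks lay inside an H3K27ac region, against 59.4% in the rest of chr19, and at 2 kb 3.08% against 26.4%. Among H3K4me3 regions with H3K27ac, a median of 81.2% of their length was acetylated, against 91.6% (stronger 2 quartiles). The strongest H3K27ac region on them had a median signal value of 17.1 (13.6 to 20.3), against 19.6 (18.6 to 21.3), with overlapping limits. H3K4me3 itself was also less extended in the blocks, with 52.3% of positions inside it at 1 kb from the summit, against 64.5%, and 0.769% against 15.6% at 2 kb.

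H3K4me1 was sparse on the flanks of the same promoters. The position 1 kb from the summit lay inside an H3K4me1 region in 39.2% of cases, against 64.8% in the rest of chr19, and the position 2 kb away in 18.5% against 47.7%. Any H3K4me1 region counts in these shares, and at 5 kb they were 6.92% against 26.8%. The summit itself lay inside an H3K4me1 region in 1 of 65 regions (1.54%, 0.272 to 8.21), against 17.3% (14.9 to 20.0) in the rest of chr19 and a background of 9.78%, the latter just above the upper limit of the blocks. Both edges had H3K4me1 within 1000 bp in 22 of 65 regions (33.8%, 23.5 to 46.0), 1 edge in 26, and no edge in 17 (26.2%, 17.0 to 38.0). In the rest of chr19 both edges had it in 78.3% (75.5 to 81.0) and no edge in 2.46% (1.61 to 3.73), beside backgrounds of 76.6% and 3.47%. The background for 1 edge was 19.9%. Where H3K4me1 overlapped, the signal value of the strongest such region was also lower, with a median of 3.48 (3.04 to 3.98) against 5.53 (5.30 to 5.69). Counting each H3K4me1 region that overlapped H3K4me3 of any strength, the medians were 3.24 (3.01 to 3.67) and 4.57 (4.47 to 4.68).

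**Figure D5:**
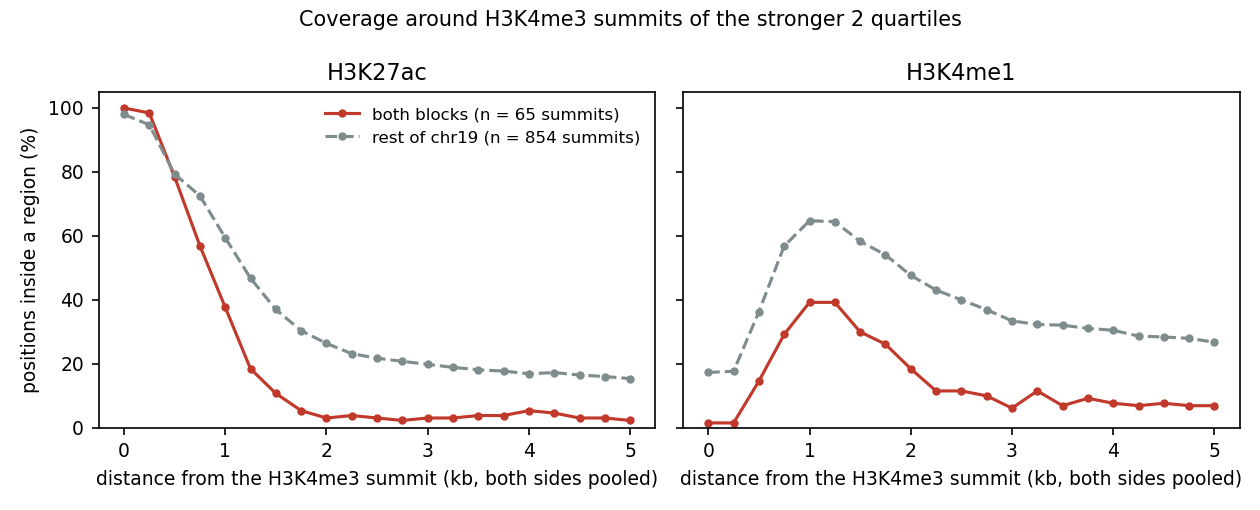
Share of positions inside an H3K27ac region (left) and an H3K4me1 region (right) by distance in kb from the H3K4me3 summits of the stronger 2 quartiles, both sides pooled, for 65 summits of the blocks and 854 of the rest of chr19. In the blocks H3K27ac falls from 100% at the summit to 3.08% at 2 kb, where the rest of chr19 is at 26.4%, and H3K4me1 stays below the rest of chr19 at each distance shown.

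The strongest H3K4me3 regions of the 19q block lay at chr19:52641418-52644115 (signal value 65.9), chr19:52597072-52599638 (62.7), chr19:52772009-52774314 (60.3), chr19:53934294-53936768 (59.3) and chr19:53969916-53972354 (53.0). Each was acetylated, with H3K27ac signal values of 22.9, 25.2, 45.9, 18.5 and 31.5 in that order. The first ranked 757 among the 24446 regions of the list on chromosomes 1 to 22 and X. The order of the 5 by acetylation thus differed from their order by H3K4me3.

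In the 19p block the strongest were chr19:23576741-23579083 (60.6), chr19:23455350-23457865 (57.5), chr19:21202831-21205035 (50.5), chr19:19976484-19978695 (48.7) and chr19:20842814-20845234 (48.4). Their H3K27ac signal values were 46.5, 28.2, 21.1, 37.9 and 28.6, and the first of them had the strongest acetylation of either block. The fourth had no H3K4me1 within it or within 1000 bp of its edges. The widest regions were chr19:24215592-24218457 (2866 bp, signal value 45.7) in the 19p block and chr19:52529455-52532728 (3274 bp, 39.6) in the 19q block. The latter lay wholly inside H3K27ac and touched the strongest H3K4me1 region of either block (signal value 8.00).

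Unacetylated H3K4me3 was confined to 5 regions. In the 19p block they were chr19:21786903-21788383 (signal value 11.2), chr19:23299760-23300278 (4.91), chr19:21525545-21526399 (3.39) and chr19:20263252-20263605 (3.29), and in the 19q block chr19:53024179-53024934 (2.67). All were below the median of the whole list. The first of them, with a width of 1481 bp, had H3K4me1 on 551 bp. The fourth falls outside the naming rule and is given to complete the count.

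Acetylated regions away from H3K4me3 were few, and mostly weak as they were in the rest of chr19. There were 18 in the 19p block and 24 in the 19q block. Their median signal value was 2.69 (2.31 to 3.51), close to the 2.43 (2.37 to 2.49) in the rest of chr19. The highest of these 42 was 11.0, against 44.8 among 1740 in the rest of chr19. A larger number makes a higher maximum likelier. The strongest in the 19p block were chr19:23443525-23445827 (11.0), chr19:24064888-24066203 (8.34) and chr19:24245056-24247404 (7.67), and each overlapped H3K4me1. Those of the 19q block were chr19:53599128-53599918 (7.85), chr19:52463395-52464660 (6.40) and chr19:53923894-53924545 (5.43), also with H3K4me1. Over both blocks the median distance of such regions from the nearest H3K4me3 region was 10.1 kb, against 5.97 kb in the rest of chr19. Within 5 kb lay 11 of 42 (26.2%, 15.3 to 41.1), against 44.3% (42.0 to 46.7). These distances depend on the spacing of H3K4me3 summits, with median gaps of 71.4 kb (19p block), 31.6 kb (19q block) and 15.3 kb (rest of chr19).

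The strongest H3K4me1 regions without H3K4me3 were chr19:24245384-24247817 (7.09) and chr19:24235968-24238367 (6.997) in the 19p block, both acetylated on about 2 kb. In the 19q block they were chr19:53439295-53441142 (7.85), with no acetylation, and chr19:53946339-53948230 (7.36), with H3K27ac on 990 bp. Across the 142 such regions of both blocks the median width was 466 bp (426 to 510), against 641 bp (626 to 657) in the rest of chr19. They were thus narrower as well as fewer.

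H3K4me3 summits were spaced at a median of 71.4 kb in the 19p block (middle 50% 24.6 to 136.5 kb) and 31.6 kb in the 19q block (19.3 to 44.6 kb). In the rest of chr19 the median was 15.3 kb (5.73 to 33.6 kb). Close neighbours were uncommon: 3 of 38 gaps in the 19p block and 7 of 42 in the 19q block were under 10 kb, against 37.3% of 1556. No gap in the 19q block was above 136.7 kb, whereas the widest in the 19p block was 901.65 kb.

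Between the promoters of the 19p block lay long stretches without any of the 3 marks. Stretches of at least 100 kb numbered 14 and made up 65.4% of that block, against 2 stretches and 14.8% in the 19q block. In the rest of chr19, without its longest such stretch, they made up 13.4%. The longest were chr19:22398679-23299759 (901.1 kb) and chr19:20279224-20746926 (467.7 kb) in the 19p block, and chr19:53701337-53835918 (134.6 kb) and chr19:52902313-53019695 (117.4 kb) in the 19q block. Several copies of closely related sequence can leave reads without a single place in the genome. How such reads were treated is not given in the sources used here, and their part in the empty stretches was not tested.

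At the outer border of the 19p block, the last H3K4me3 region outside (chr19:19777465-19781675) was 4211 bp wide with a signal value of 56.6, and the first inside (chr19:19842412-19844779) was 2368 bp wide with 44.8. Toward the centromere the last regions inside ended 163 to 164 kb before the border, and the next H3K4me3 region lay at chr19:28281527-28286365. At the left border of the 19q block the nearest H3K4me3 regions were chr19:52207000-52208715 outside (38.2) and chr19:52406712-52408475 inside (48.9). At its right border they were chr19:53969916-53972354 inside (53.0) and chr19:54000394-54000802 outside (1.83). An H3K27ac region (chr19:53999828-54002067) and an H3K4me1 region (chr19:53999818-54000791) crossed that right border and count as members.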

How the data were processed

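Reads of 51 bp pairs came from immunoprecipitations of 300 ng sheared DNA, per the labels' protocols. MACS2 and hg19 are named in the submitters' processing notes; versions, the aligner and the threshold are not given in the sources used here. The authors deposited 1 list per mark with a signal value per peak, the −log10 of its q-value, and a score that was not used. Positions are hg19, counted from 1; 0 peaks passed the ends of its chromosomes (GenomeInfoDb 1.38.1; bands from circlize 0.4.16). No peaks of a list overlapped. Regions overlapped where they shared at least 1 bp. Shares have Wilson intervals, densities exact Poisson intervals, density ratios exact conditional binomial intervals and medians order-statistic intervals. Named regions were, per block, the 5 strongest and the widest H3K4me3 regions, the 3 strongest without H3K27ac, the 3 strongest H3K27ac and 2 strongest H3K4me1 regions without H3K4me3, and the 2 longest empty stretches. Promoters are the 250 bases before the outermost RefSeq start of each gene. The members, gene sets, motifs, quartile classes and distances were chosen with earlier results of these data known. Functions were tested on simulated data. Python 3.11.15, numpy 2.4.6, pandas 2.3.3, scipy 1.17.1 and matplotlib 3.10.9 were used.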

Additional observations from a re-analysis of the deposited data

How the results depend on the processing

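The 7 alternatives gave 77 values for 11 results. Of these, 64 stayed within the 95% limits of the main value and 13 moved outside them. Only the value of the blocks is compared in this way, so a contrast can shrink while that value stays. The stronger 50% of each list gave density ratios of 0.425 for H3K27ac, 0.182 for H3K4me1 and 0.627 for H3K4me3. Shares of H3K4me3 regions were 98.5% with H3K27ac (91.8 to 99.7, rest of chr19 96.8%) and 41.5% with H3K4me1 (rest 86.4%). The median H3K27ac signal value was 12.6 (10.5 to 16.8, rest 10.7). The contrasts in H3K27ac overlap and in H3K27ac signal value were thus within counting error there, with both shares near the ceiling. The main value of the latter was 8.34 (6.25 to 11.0, rest 3.84). By class it was 13.1 (10.5 to 17.1) against 12.6 (11.5 to 13.5) on H3K4me3, and 2.69 against 2.43 away from it. Joining peaks within 1000 bp gave density ratios of 0.445 for H3K27ac and 0.325 for H3K4me1 and a median H3K27ac signal value of 11.04 (rest 7.15). A −log10 q-value of at least 5 gave a density ratio of 0.209 for H3K4me1 and an H3K4me1 share of 61.3% at H3K4me3 regions (rest 92.8%). Requiring 50% of a region to be covered gave 13.4% for that share (rest 62.0%) and 64.4% for H3K4me1 regions with neither other mark (58.0 to 70.2, rest 66.5%), the latter again within counting error. The blocks stayed on the same side of the rest of chr19 in all but 2 of the 77 values, the median width and signal value of H3K4me3 in the stronger 50%, at 2120 bp against 2325 bp and 40.6 against 41.6. That signal value was within counting error. With peaks joined, so was the width, at 1979 bp (1770 to 2205) against 1821 bp. The share of H3K4me1 regions with neither other mark was within counting error at a −log10 q-value of at least 5 (38.2%, 30.5 to 46.6, rest 44.6%). The same held with peaks joined (38.5%, 31.3 to 46.2, rest 45.7%) and with borders moved inward (44.6%, 37.6 to 51.8, rest 51.4%). The 50% cover rule cannot change densities, widths or signal values. Leaving the longest empty stretch out of the rest of chr19 can change the density ratios alone. The values fixed in this way count among the 64 and among those on the same side. No paired analysis was possible because the lists pool the replicates, and for the same reason no replicate could be left out. The depth behind the lists is unknown.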

Other observations

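Strong acetylation on weak H3K4me3 was seen at a pair of places in the 19q block, singled out after their values were seen. The H3K27ac region at chr19:53600388-53601757 had a signal value of 37.1 and the H3K4me3 region inside it, chr19:53600453-53600910, a signal value of 4.25 and a width of 458 bp. At chr19:53629044-53631334 the values were 21.8 for H3K27ac and 5.38 for the H3K4me3 region of 528 bp within it. Both also carried H3K4me1, on 1267 bp and 1684 bp of the acetylated region.

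Other short motifs in the promoters were counted on both strands. The letters GGGCGG, a GC box bound by Sp and KLF factors, were in 21 of 27 promoters of the 19p set and 25 of 31 of the 19q set, against 64.1% of zinc finger promoters of chromosome 19, 64.0% of its protein-coding promoters and 42.2% of all promoters of the table. CCGGAAG, an ETS core, was in 19 of 27 and 3 of 31, against 30.5%, 15.1% and 8.78% in the same order. CCAAT alone, which lies within CCAATCAG, was in 27 of 27 and 7 of 31, against 50.5%, 39.5% and 33.0%. An NRF1 core was in 0 of 27 and 1 of 31, and a ZNF143 core in 0 of 27 and 0 of 31, against 2.27%, 1.88% and 1.13% for the former and 0.909%, 0.599% and 0.249% for the latter. Many promoters of the 19p set are related copies, so these counts are not independent. The larger sets beside them include both gene sets.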
